A study of Caenorhabditis elegans with 59 samples.

Results

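The genes F36F12.8 (ztf-28, named for a zinc finger), C04F12.5 (nssp-7) and C27C7.1 of Caenorhabditis elegans, all protein-coding, are 3 of 39505 genes and other features listed in 6 tables of deposited values. They were chosen by their measured values in animals without the Argonaute PRG-1, in which their small RNA was high and their mRNA low. Those values are therefore given as a description, with no test. All 3 genes had values in 5 tables, and none of them had a row in the table of generation 50 small RNA, so their small RNA at that generation was not analysed here. In the RefSeq annotation of assembly WBcel235 F36F12.8 lies on chromosome V and the other two on chromosome I.

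PRG-1 is the Piwi Argonaute that carries piRNAs in the worm germline. Where a piRNA pairs with a transcript, RNA-dependent RNA polymerases use that transcript as template for secondary small RNAs, which begin with a 5′ triphosphate and are loaded into worm-specific Argonautes that silence it. The mutator complex, which includes the related DEAD-box helicases MUT-14 and SMUT-1, is needed to make much of this secondary small RNA. Small RNA counted at a gene can include secondary small RNA, and mRNA reports on what is left of the transcript. Which of the counted reads are secondary, and what set off their production, was not tested.

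The wild type was N2. The strain without PRG-1 was SX922, which carries prg-1(n4357). GR1948 carries mut-14(mg464) and smut-1(tm1301) and also unc-119(ed3), which no other group carries. GR2070, called the triple mutant, joins prg-1(n4357) to the same mut-14 and smut-1 alleles. These 4 genotypes were compared at generation 1, as gravid adults of 72 h, and at generation 50, as gravid adults whose age the labels do not give, with 3 libraries each. The exception was generation 1 small RNA of mut-14 smut-1, with 2 libraries. A second allele, WM161 with prg-1(tm872), was compared with N2 in small RNA at 68 h, and polyA-selected mRNA with total mRNA of N2 at 72 h, with 3 libraries each. Whole animals were grown at 20 °C, so a lower value can mean fewer cells of a type or less RNA per cell, which cannot be told apart.

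The targeted genes followed the labels. At generation 1, mut-14 mRNA in mut-14 smut-1 was 2.36% of the wild type and smut-1 mRNA 14.8%, and prg-1 mRNA in prg-1(n4357) was 37.8%. Library depth ran from 12053247 to 23482165 reads, approximately, for mRNA at generation 1, from 14284958 to 63851362 at generation 50, and from 224056 to 2117438 for small RNA at generation 1. Correlations between replicates on the log2 scale were lowest in generation 50 mRNA, at 0.919. All values below are normalized counts as deposited. Changes in log2 are of value + 1 and carry their standard error.

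In wild-type animals the 3 genes were expressed and carried little small RNA. The mRNA of F36F12.8 stood at 563, 521 and 541 in the 3 wild-type libraries of generation 1, and its small RNA at 77.98, 69.9 and 55.3. The mRNA of C27C7.1 stood at 768, 754 and 695, and its small RNA at 134, 130.1 and 133. C04F12.5 had mRNA values of 167, 147 and 159, and its small RNA amounted to 15 reads over the 3 libraries. In prg-1(n4357) each of them had low mRNA and abundant small RNA.

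In prg-1(n4357) at generation 1 the small RNA of F36F12.8 was 5653, 6363 and 5831, an 87.8-fold higher mean than in the wild type. That of C27C7.1 was 4937, 5465 and 5291, 39.5-fold higher. That of C04F12.5 was 2405, 2795 and 2430.3, from 7589 reads in all, against 15 in the wild type. That is a ratio of 772 with the deposited scaling (exact 95% interval 468 to 1380, counting error only) and of 511 at equal depth (310 to 914). None of the wild-type libraries came near these values. Together the 3 genes took 0.848% ± 0.0213 (SD, n = 3) of the counted small RNA reads of prg-1(n4357), against 0.0190% ± 0.00128 (n = 3) in the wild type.

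**Figure D1:**
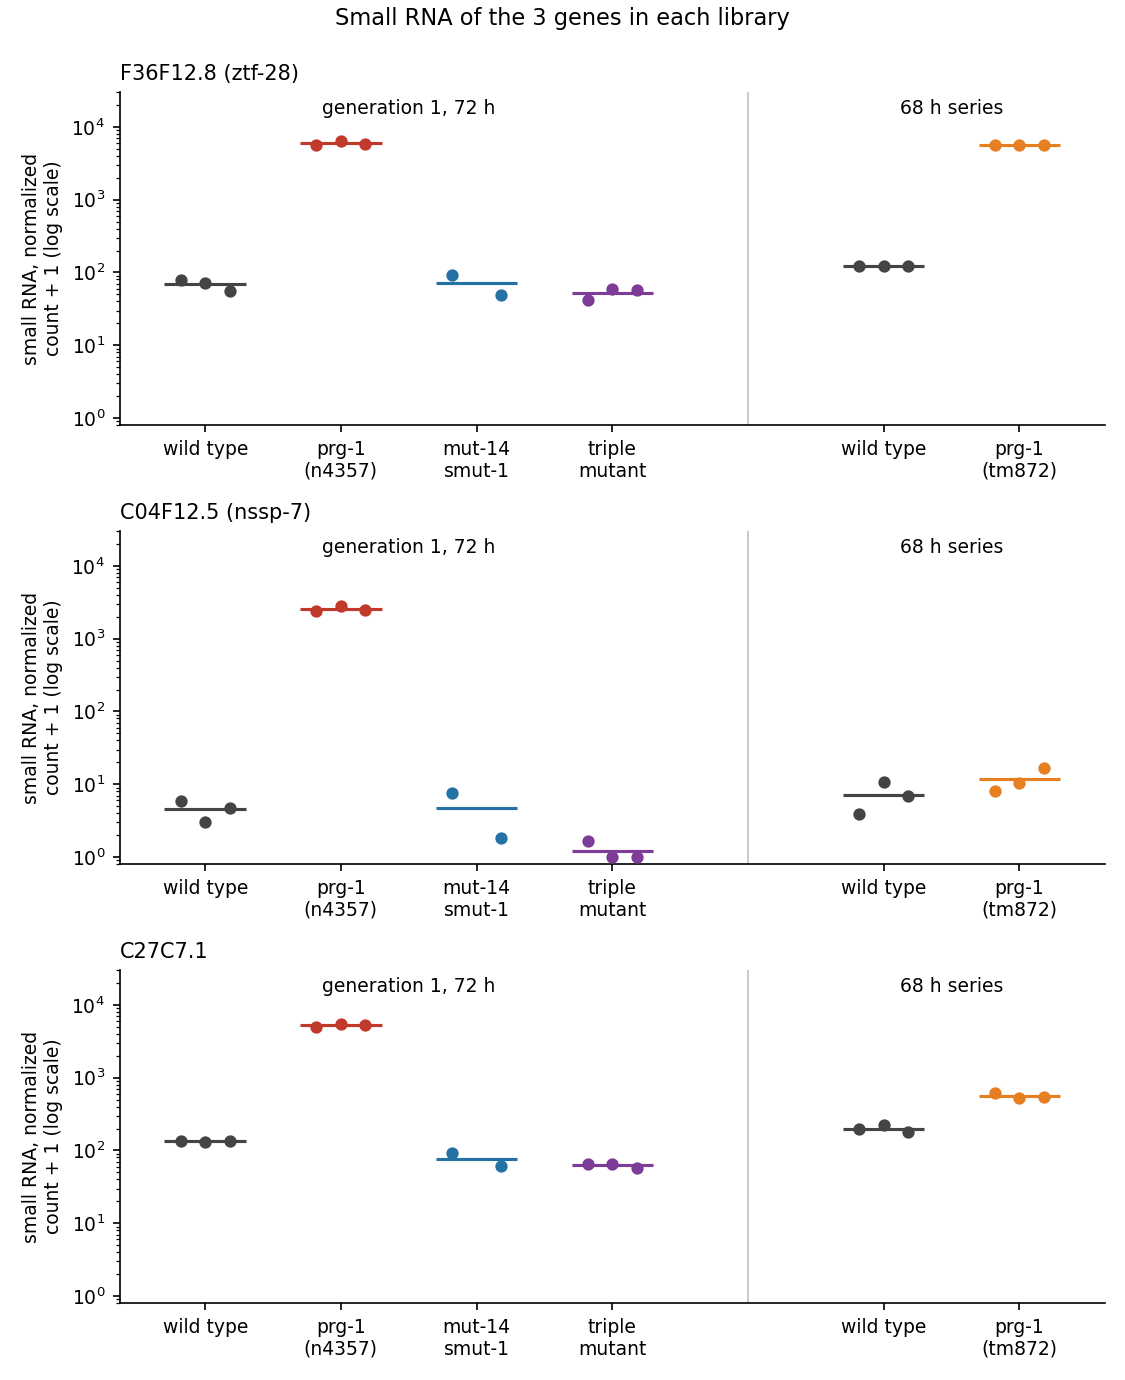
Small RNA of each gene in each library (points) with the group mean (bars), as normalized count + 1 on a log axis. In generation 1 the 3 prg-1(n4357) libraries of F36F12.8 sit between 5653 and 6363 while the triple mutant sits between 40.4 and 58.8. C04F12.5 stands high in prg-1(n4357) and stays near the bottom in prg-1(tm872).

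The mRNA of the same genes was low in the same genotype. F36F12.8 measured 20.3, 18.1 and 27.6, which left 4.06% of the wild-type mean. C27C7.1 measured 14.5, 14.5 and 20.98, or 2.25% of the wild type. C04F12.5 measured 20.3, 14.5 and 15.5, or 10.6%. For none of the 3 did a prg-1(n4357) library reach a wild-type library; groups that did not overlap, with prg-1(n4357) lower, made up 34.1% of the 14618 genes tested for mRNA and, with it higher, 33.4% of the 7418 tested for small RNA, and nothing is read from these counts because the contrast chose the genes.

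Set beside all genes, C27C7.1 and F36F12.8 ranked higher by mRNA loss than by small RNA gain, and C04F12.5 the other way round. By the size of mRNA loss C27C7.1 ranked 2nd, F36F12.8 5th and C04F12.5 25th of 14618 genes. By the size of small RNA gain C04F12.5 ranked 7th, F36F12.8 66th and C27C7.1 97th of 7418. Among 6970 genes tested in both tables, C27C7.1 and F36F12.8 held the first and second place by the smaller of gain and loss, and C04F12.5 the tenth. The genes between them were W09B7.2 and F07B7.2, whose values are identical and which therefore may share reads, F56A4.12, the histone genes his-10, his-14 and his-26, which also share their values, and F57A10.4. Their mRNA differences ran from -3.29 to -3.63 in log2, beside -3.17 for C04F12.5 and -5.41 for C27C7.1.

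Most genes with a large gain of small RNA did not have a large loss of mRNA. Of the 6970 genes, 159 gained small RNA 16-fold or more in prg-1(n4357) at generation 1. The mRNA of 108 of those was within 2-fold of the wild type, that of 42 was lower by 2-fold or more, and that of 9 was higher by 2-fold or more. The 3 genes described here are among the 42, as follows from how they were chosen. The shares of all 6970 genes with such mRNA changes are not given, and whether gain and loss go together was not tested. A gain of 8-fold or more together with a loss of 8-fold or more was found at 10 genes, the 3 among them. A loss of 8-fold or more was found at 28 of the 14618 genes tested for mRNA.

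**Figure D2:**
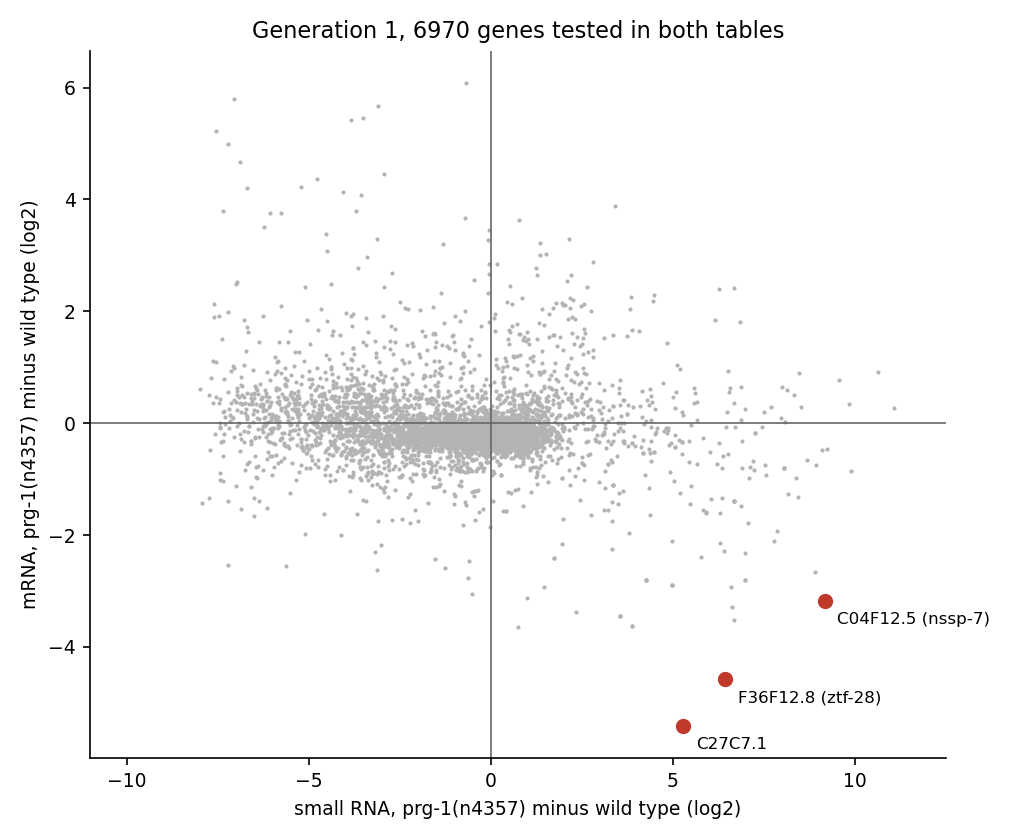
Difference between prg-1(n4357) and wild type at generation 1 for 6970 genes, small RNA on the x axis and mRNA on the y axis, both in log2 of value + 1 (points). The 3 genes (red) lie at the lower right, C04F12.5 with the larger gain (9.17) and C27C7.1 with the larger loss (-5.41).

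The next question was whether this state depended on the mutator helicases. In the triple mutant F36F12.8 small RNA was 40.4, 58.8 and 55.7, and that of C27C7.1 was 65.2, 64.2 and 55.7. C04F12.5 had 1 read in the 3 triple-mutant libraries together. The libraries of C27C7.1 were all below those of the wild type, and those of F36F12.8 overlapped them. The mean of prg-1(n4357) was 115-fold higher than that of the triple mutant for F36F12.8 and 84.8-fold higher for C27C7.1. For C04F12.5, 7589 reads against 1 give a ratio of 7028 with the deposited scaling (exact 95% interval 1261 to 277615) and of 2152 at equal depth (386 to 85011).

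Against prg-1(n4357), the triple mutant's small RNA fell by 6.84 ± 0.225 for F36F12.8 (limma, adjusted p = 2.43e-09), and C27C7.1 fell by 6.38 ± 0.128 (limma, adjusted p = 9.20e-11). The small RNA of C04F12.5 was lower as well. Only its prg-1(n4357) libraries reached 10, the value needed to be tested, so its test was fixed in advance and is not read. F36F12.8 and C27C7.1 were called lower, as were 23.6% of the 7418 features tested. This contrast shares the prg-1(n4357) libraries with the choice of the genes, so its p-values are in part set by that choice. A contrast that shares no library with it is the triple mutant against mut-14 smut-1.

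Against mut-14 smut-1, the triple mutant showed no gain of small RNA that passed the test. The values in mut-14 smut-1 were 92.2 and 48.1 for F36F12.8, and 90.0 and 59.4 for C27C7.1, with 4 reads in all for C04F12.5. The difference of the triple mutant from mut-14 smut-1 was -0.38 ± 0.252 for F36F12.8 (limma, adjusted p = 0.438) and -0.24 ± 0.144 for C27C7.1 (limma, adjusted p = 0.376). C04F12.5 had 3 and 1 reads in the mut-14 smut-1 libraries and 1, 0 and 0 for the triple mutant, at or under the floor of 3 reads in each library, so no fold is given (limma, adjusted p = 0.107). None of the 3 genes was called, beside 6.08% of the 7418 features. With 2 mut-14 smut-1 libraries the outcome rests on each: without the second, the differences of F36F12.8 and C27C7.1 pass the test as lower (-0.84 and -0.54), and without the first they are 0.081 and 0.0515. In these fits the 1 library left is assumed to vary like the other groups.

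The direction of small RNA in mut-14 smut-1 against the wild type depended on the scaling. With the deposited scaling the strain differed by -0.01 ± 0.252 for F36F12.8 (limma, adjusted p = 0.980) and by -0.85 ± 0.144 for C27C7.1 (limma, adjusted p = 0.000382), the 1 gene of the 3 that was called, beside 68.7% of features. Scaled to library totals in place of the deposited scaling, the same differences were 1.12 and 0.29, and the median of all features moved from -0.47 to 0.62. As a share of counted reads, C27C7.1 took 0.0123% in the wild type, 0.0154% in the mut-14 smut-1 strain and 0.0124% for the triple mutant. This contrast, too, shares the wild-type libraries with the choice of the genes. From prg-1(n4357) to the triple mutant, by contrast, F36F12.8 fell by 5.15 and C27C7.1 fell by 4.69 with library totals, and both passed the test there too. The median of all features in that contrast was 1.46 with library totals and -0.09 with the deposited scaling.

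The mRNA stood higher in the triple mutant than in prg-1(n4357), to a different degree at each gene. C27C7.1 measured 1170.2, 1234 and 1122 in the triple mutant at generation 1, or 159% of the wild-type mean. C04F12.5 measured 145, 156 and 138, or 92.8%. F36F12.8 measured 254, 261 and 209, or 44.6%. Every triple-mutant library was above every wild-type library at C27C7.1 and below every wild-type library at F36F12.8, and at C04F12.5 the groups overlapped.

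Against prg-1(n4357) these levels were 70.6-fold higher for C27C7.1, 10.98-fold for F36F12.8 and 8.74-fold for C04F12.5. The limma differences were 6.08 ± 0.107 (adjusted p = 1.79e-16), 3.41 ± 0.131 (adjusted p = 5.58e-12) and 3.07 ± 0.133 (adjusted p = 2.89e-11). All 3 were called higher, as were 25.7% of the 14618 genes, and 12.1% were called higher by 2-fold or more. As for small RNA, the contrast shares the prg-1(n4357) libraries with the choice of the genes.

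**Figure D3:**
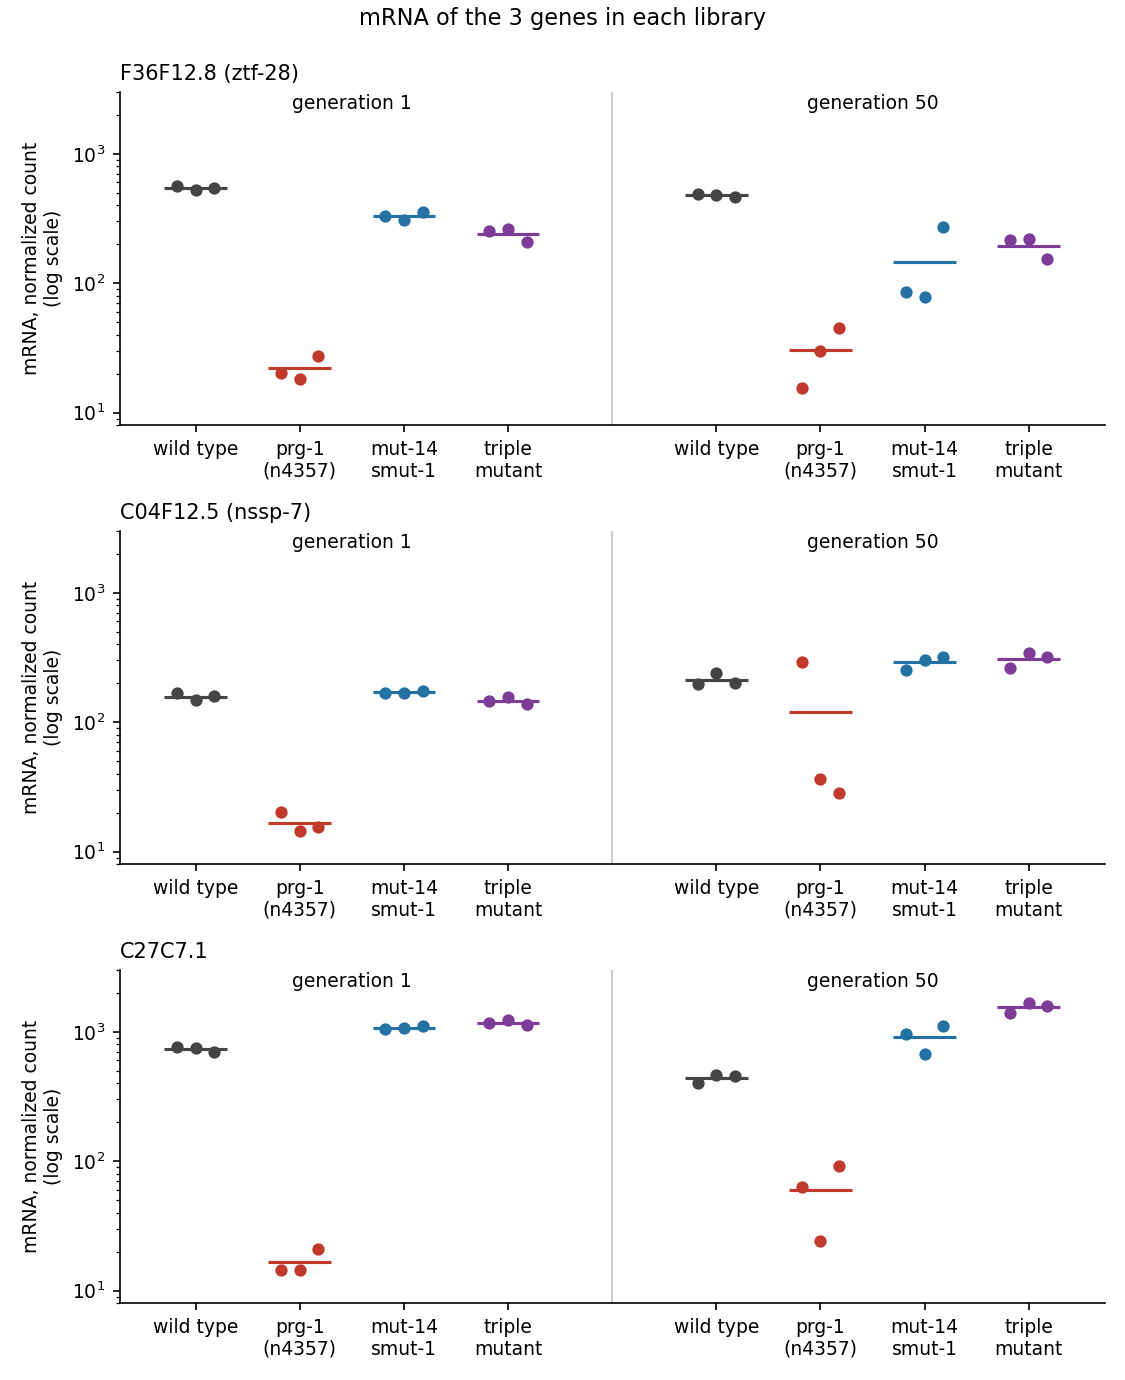
mRNA of each gene in each library (points) with the group mean (bars), as normalized count on a log axis, for the 4 genotypes at generation 1 (left) and generation 50 (right). The prg-1(n4357) libraries lie lowest at generation 1, and at generation 50 the first C04F12.5 line lies at 293, above its wild type.

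Between the triple mutant and mut-14 smut-1, 1 of the 3 mRNAs differed at generation 1, that of F36F12.8. These strains differ in prg-1 and in unc-119(ed3), which cannot be told apart. In mut-14 smut-1 F36F12.8 measured 331, 309 and 358, all above the triple mutant, from which it differed by -0.46 ± 0.131 (limma, adjusted p = 0.0298). The call is lost without mut-14 smut-1 replicate 1 (adjusted p = 0.0736) or 3 (adjusted p = 0.127) or triple-mutant replicate 3 (adjusted p = 0.134). C04F12.5 measured 169, 169 and 174 and did not pass the test, at -0.22 ± 0.133 (limma, adjusted p = 0.322). C27C7.1 measured 1044, 1075 and 1103 and did not pass either, at 0.13 ± 0.107 (limma, adjusted p = 0.493). Calls made up 11.5% of all 14618 genes in this contrast, and calls in the lower direction 5.51%.

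In the mut-14 smut-1 strain, which also carries unc-119(ed3), F36F12.8 and C27C7.1 mRNA moved in opposite directions. F36F12.8 mRNA fell by 0.71 ± 0.131 in mut-14 smut-1 against the wild type (limma, adjusted p = 0.000126), to 61.3% of its mean. C27C7.1 rose by 0.54 ± 0.107 (limma, adjusted p = 0.000224), to 145% of the wild-type mean. C04F12.5 differed by 0.11 ± 0.133 (limma, adjusted p = 0.434). So 2 of 3 genes were called, beside 78% of all genes, and such a share is close to the background. This contrast shares the wild-type libraries with the choice of the genes.

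Tissue markers moved between the same groups. At generation 1 the summed level of 13 oocyte and eggshell genes was 310449 to 335959 for the wild type, 252447 to 273791 for prg-1(n4357), 192929 to 217402 for mut-14 smut-1 and 193990 to 221245 for the triple mutant. None of the 13 was at 0 in any of these groups. The summed level of 41 sperm genes, many of them near-identical msp copies that may share reads, was 2028 to 2867, 8428 to 9272, 19394 to 22797 and 28667 to 34865 in the same order, with 1 of the 41 at 0 in the wild type and none at 0 in the mutants. Of the 38 sperm genes tested, 38 were called higher in prg-1(n4357), with a median of 1.93 in log2 beside -0.02 for all genes. The part of these shifts in the mRNA values of the 3 genes was not tested.

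Genes of the small RNA pathway, from lists drawn up with earlier results of these data known, were more often lower than higher in prg-1(n4357) at generation 1. Of 16 tested RNA-dependent RNA polymerase and mutator factor genes, 15 were called lower and 1 higher, with a median of -0.30 beside -0.02 for all genes. The factor that rose was rde-11, by 0.75 ± 0.0512 (limma, adjusted p = 6.55e-09). Of 20 Argonaute genes, 10 were called lower and 3 higher. The 10 include prg-1 itself, whose fall of 1.40 follows from the genotype and says nothing about the pathway. nrde-3, a nuclear Argonaute for secondary small RNA, fell by 1.00 ± 0.0645 (limma, adjusted p = 2.98e-09), and alg-3, which acts in the male germline, rose by 2.00 ± 0.203 (limma, adjusted p = 7.50e-07). Among 12 piRNA biogenesis genes 7 were called lower and 1 higher, among 12 germ granule genes 8 lower, and among 12 nuclear RNAi and heterochromatin genes 10 lower. In somatic lists 9 of 9 body wall muscle genes, 9 of 13 neuronal genes and 1 of 11 intestine genes were called higher, and none lower. In other germline lists 10 of 13 oocyte and eggshell genes, 9 of 13 germline proliferation and meiosis genes and 4 of 8 early embryo genes were called lower, and none higher. Over all genes 32% were called lower and 25.6% higher in the generation 1 contrast. Which direction was more frequent depended on the processing. Higher genes made up 44.4% of the called genes as reported. Under other settings that keep every library, they made up from 27.18% to 62.67%. The list counts are not given under those settings.

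After 50 generations the lines of prg-1(n4357) differed from gene to gene. In prg-1(n4357) F36F12.8 mRNA measured 15.4, 30.1 and 45.2 in lines 1 to 3, against 491, 481 and 459 in the wild-type lines. C27C7.1 measured 63.2, 24.1 and 91.6, against 405, 464 and 452. C04F12.5 measured 293, 36.1 and 28.6, against 199, 239.7 and 200.1. The C04F12.5 mRNA of line 1 was thus above every wild-type line, while F36F12.8 was lowest in that same line and C27C7.1 lay between its values in the other two.

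Mean mRNA in prg-1(n4357) at generation 50 was 6.35% of the wild type for F36F12.8, 13.5% for C27C7.1 and 55.98% for C04F12.5. The summed level of the sperm genes was 136 to 9301 in these wild-type lines and 10154 to 24919 in prg-1(n4357), and its part in these values was not tested. At generation 1 the same shares were 4.06%, 2.25% and 10.6%, each within its own table, since the tables were normalized separately. The difference of C04F12.5 from the wild type was -1.64 ± 0.644 over the 3 lines and -2.69 without line 1. Groups that did not overlap, with prg-1(n4357) lower, made up 15.9% of the 16328 genes tested at generation 50; F36F12.8 and C27C7.1 were of that kind and C04F12.5 was not, and the contrast was used to choose the genes.

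In the generation 50 triple mutant C27C7.1 stood at 1396, 1663 and 1569, or 350.1% of the wild type, and C04F12.5 at 263, 343 and 321, or 145%. F36F12.8 stood at 214, 218 and 153, or 40.9% of the wild type. C27C7.1 and C04F12.5 lay above every wild-type line and F36F12.8 below every one. Against prg-1(n4357), C27C7.1 rose by 4.86 ± 0.375 (limma, adjusted p = 3.18e-05) and F36F12.8 by 2.75 ± 0.467 (limma, adjusted p = 0.0210). C04F12.5 differed by 2.17 ± 0.644 (limma, adjusted p = 0.242), or by 3.22 without prg-1(n4357) line 1 (adjusted p = 3.35e-05). Thus 2 of 3 genes were called higher, beside 0.416% of all 16328 genes. The prg-1(n4357) lines of this contrast were also used to choose the genes, so nothing is read from that excess. The F36F12.8 call is lost, with adjusted p from 0.0661 to 0.110, when prg-1(n4357) line 1 or 2 or any 1 of the triple-mutant lines is left out.

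In mut-14 smut-1 at generation 50, F36F12.8 was uneven between lines, at 84.9, 77.9 and 273, and C27C7.1 at 969, 670.1 and 1109.5. F36F12.8 fell by 1.96 ± 0.467 against the wild type (limma, adjusted p = 0.0116), the 1 call of the 3, beside 27.8% of all genes. The wild-type lines of this contrast are shared with the choice of the genes. C27C7.1 differed by 1.03 ± 0.375 (limma, adjusted p = 0.0617) and C04F12.5 by 0.45 ± 0.644 (limma, adjusted p = 0.631). The third mut-14 smut-1 line held the most F36F12.8 mRNA of the 3, and without it F36F12.8 fell by 2.54.

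The triple mutant at generation 50 differed from mut-14 smut-1 by 0.65 ± 0.467 for F36F12.8 (limma, adjusted p = 0.458), 0.08 ± 0.644 for C04F12.5 (limma, adjusted p = 0.960) and 0.78 ± 0.375 for C27C7.1 (limma, adjusted p = 0.266). None of the 3 was called, beside 1.95% of all genes. Whether this difference had changed since generation 1 was tested over both tables. The change was 1.12 ± 0.508 for F36F12.8 (limma, adjusted p = 0.227), 0.30 ± 0.698 for C04F12.5 (limma, adjusted p = 0.854) and 0.65 ± 0.414 for C27C7.1 (limma, adjusted p = 0.411), with no call beside 3.95% of 14586 genes. Without the third mut-14 smut-1 line of generation 50 the change for F36F12.8 was 1.70 (adjusted p = 0.00629).

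With the tm872 allele, at 68 h, F36F12.8 small RNA was high, C27C7.1 was moderately higher than the wild type and C04F12.5 stayed low. F36F12.8 small RNA was 123, 123 and 123 in the wild type and 5570.2, 5578 and 5672 in prg-1(tm872), 45.5-fold higher. C27C7.1 was 194, 221 and 179 against 609, 525 and 538, 2.81-fold higher. C04F12.5 was 2.87, 9.62 and 5.80 against 7.01, 9.52 and 15.9, from 19 and 31 reads, and the groups overlapped. In the n4357 series at 72 h the same ratios were 87.8 for F36F12.8 and 39.5 for C27C7.1. For C04F12.5 the ratio was 1.84 with the deposited scaling (exact 95% interval 1.01 to 3.45, counting error only) and 1.54 at equal depth (0.843 to 2.88), beside 772 and 511 in the n4357 series. Groups that did not overlap, with prg-1(tm872) higher, made up 36.3% of 7273 features. Strain, age and table all differ between the alleles and cannot be told apart, and mRNA of prg-1(tm872) was not analysed here.

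Transcripts of all 3 genes were kept by polyA selection. The polyA-selected wild-type libraries measured 370.1, 373 and 429.5 for F36F12.8, and the total RNA libraries 362, 318 and 374, a difference of 0.15 ± 0.0999 (limma, adjusted p = 0.312). C27C7.1 measured 2084, 1893 and 1981 against 2085, 1886 and 1711, a difference of 0.07 ± 0.0817 (limma, adjusted p = 0.577). C04F12.5 measured 527, 431 and 559 against 412, 378 and 376 and was called higher by 0.37 ± 0.103 (limma, adjusted p = 0.0204), as were 5.47% of 14570 genes. That call is lost without polyA replicate 1 or 3 or total RNA replicate 2 or 3, with adjusted p from 0.0530 to 0.0918. These tests treat the libraries as unpaired. Deviations of same-numbered libraries correlated at -0.003 to 0.294, and those of differently numbered ones at -0.174 to 0.137. Whether the numbers pair the libraries is thus not settled here.

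The next question was whether neighbouring genes gained small RNA too. Of the 18 annotated genes nearest to the 3 genes, 3 on each side, 4 reached the filter for generation 1 small RNA, 9 were below it and 5 were not listed. All 4 were called, 2 higher and 2 lower, beside 66.2% of features. gtnt-27, next to ztf-28, lost small RNA in prg-1(n4357), with wild-type libraries at 19.4 to 24.6 and mutant libraries at 0 to 0.988 (limma, adjusted p = 4.45e-07). nhr-73, a nuclear hormone receptor gene near C27C7.1, lost some as well, by 1.16 ± 0.424 (limma, adjusted p = 0.0332). Its groups overlapped, at 8.21 to 31.4 in the wild type and 5.57 to 9.88 in prg-1(n4357). rpl-14, a ribosomal protein gene whose annotated span overlaps that of nssp-7, rose by 0.85 ± 0.277 (limma, adjusted p = 0.0193), and lbp-9, a lipid-binding protein gene near ztf-28, by 0.80 ± 0.146 (limma, adjusted p = 0.000697). Both gains are below 2-fold, beside 9.17 for nssp-7 and 6.45 for ztf-28. Deposited totals averaged 1617370 in prg-1(n4357) and 1074258 in the wild type, and these 2 gains are not given with library totals. In mut-14 smut-1 lbp-9 differed from the wild type by 0.69 and rpl-14 by 0.65. In prg-1(tm872) lbp-9 differed by 0.76 (limma, adjusted p = 0.00323) and rpl-14 by 0.15 (limma, adjusted p = 0.536). With the same allele gtnt-27 differed by -4.99 (limma, adjusted p = 5.95e-07) and nhr-73 by -5.08 (limma, adjusted p = 3.06e-06). gtnt-26, whose span overlaps that of ztf-28, was below the filter in each table that lists it, and counting by strand is not stated.

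**Figure D4:**
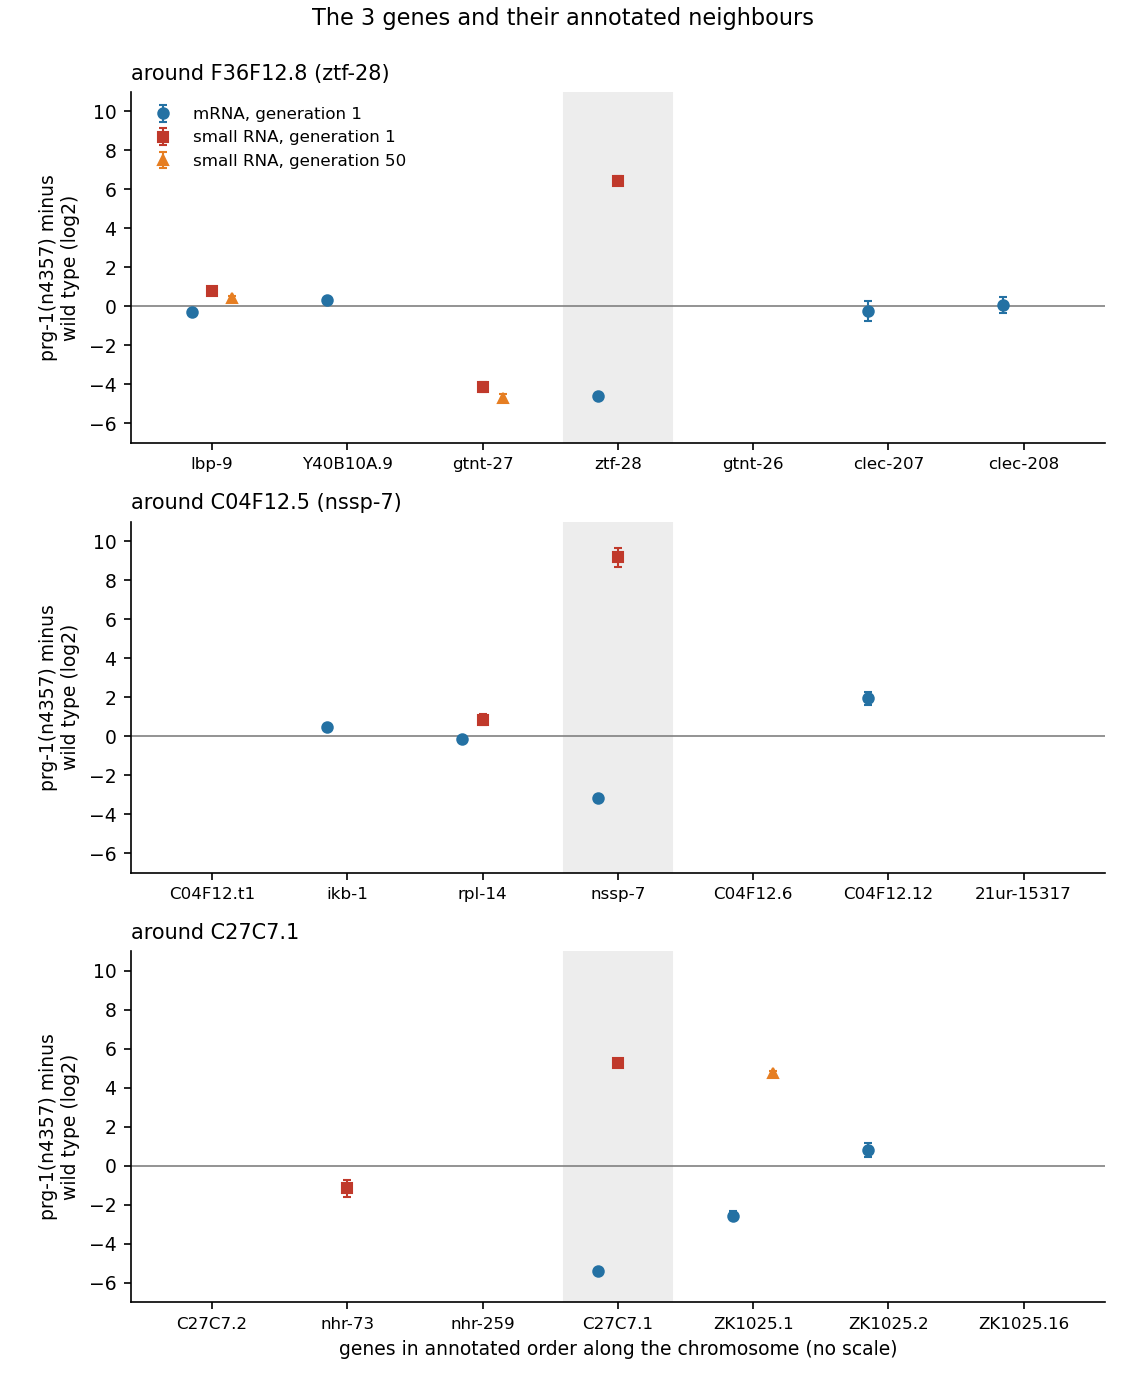
Difference between prg-1(n4357) and wild type (log2 of value + 1, bars ± SE) for the 3 genes (shaded) and 3 annotated neighbours on each side, in annotated order. Circles are mRNA at generation 1, squares small RNA at generation 1 and triangles small RNA at generation 50; ZK1025.1 is low in mRNA (-2.56) and high in small RNA (4.76), and genes without a mark were below the filter or not listed.

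The pseudogene ZK1025.1, next to C27C7.1, had low mRNA and high small RNA in prg-1(n4357) as well. Its mRNA was 55.7 to 69.5 in the wild type and 6.62 to 12.1 in prg-1(n4357) at generation 1, a fall of 2.56 ± 0.231 (limma, adjusted p = 1.90e-07), beside 32% of genes called lower. Its small RNA, listed at generation 50, was 782 to 882 in the wild type and 19698 to 25797 in prg-1(n4357), a rise of 4.76 ± 0.118 (limma, adjusted p = 8.42e-11), beside 21.4% of 10864 features called higher. Small RNA of the pseudogene was 105 to 130.1 without the mutator helicases and 102 to 118 in the triple mutant. Its mRNA at generation 50 did not pass the test, at -0.88 ± 0.478 (limma, adjusted p = 0.277). Whether ZK1025.1 and C27C7.1 share reads was not tested.

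A gene a little farther off went against C27C7.1, and was picked after its values were seen. C27C7.7 has the same annotated length as C27C7.1. Its small RNA was 261 to 306 in the wild type at generation 1 and 0 to 3.40 in prg-1(n4357), and 415 to 442 against 0 to 6.01 in the tm872 series. Its mRNA overlapped between the groups, at 6.87 to 16.0 and 8.46 to 13.2. Whether the 2 genes are copies, and how the counting split reads between them, was not tested.

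Over 17 small RNA libraries and 24 mRNA libraries, each set against the wild type of its table, the 3 genes resembled each other to differing degrees. Pearson's r between C04F12.5 and C27C7.1 was 0.969 in small RNA and 0.901 in mRNA. Between F36F12.8 and C27C7.1 it was 0.887 and 0.795, and between F36F12.8 and C04F12.5 0.78 and 0.70. These are descriptions over libraries that share tables and genotypes. The libraries include those of prg-1 by which the 3 genes were chosen, so their likeness is in part set by that choice. C04F12.5 was kept here although it missed the filter in the tm872 series. C27C7.1 was the gene most like C04F12.5 among 6658, followed by inos-1, an inositol phosphate synthase gene, alh-7, an aldehyde dehydrogenase gene, and the histone genes his-44 and his-15. The differences of his-44 and his-15 between prg-1(n4357) and wild type were identical, so these copies may share reads. The genes most like F36F12.8 were F31E9.6, F57A10.4, F32E10.9, R03D7.2 and the histone gene his-65, and those most like C27C7.1 were T16G12.3, C04F12.5, H11L12.1, E02H9.3 and H14A12.5.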

How the data were processed

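Small RNA of 16 to 30 nt, treated with polyphosphatase, and rRNA-depleted RNA over 200 nt were sequenced, per the labels' protocols; 2 stranded mRNA kits are named there without saying which library used which. Every deposited table holds a normalized signal per gene, in which the authors scaled each library by a factor of its own, as the steps between low values show. Small RNA values were turned back into whole reads (100% within 0.01); mRNA depths are approximate. The aligner, the counter and the genome build were not named in the labels read here.

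Values were tested as log2(value + 1) with limma 3.58.1 (R 4.3.3), 1 mean per group, a mean-variance trend and Benjamini-Hochberg adjustment over every feature reaching 10 in as many libraries as the smallest group; adjusted p under 0.05 was called. The design assumed this unit might be counts for mRNA; it was not, so no count test was run there, while edgeR 4.0.16 and DESeq2 1.42.0 were run on recovered generation 1 small RNA reads. C04F12.5 missed the filter in the tm872 table. The fit was tested on simulated data. All 59 library columns were used, and second entries of a gene (158 in each mRNA table) were dropped. The labels do not say that replicates came from separate cultures, so p-values may measure technical spread. Groups of 3 do not allow an outlier test.

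The genes named are the 3 members, their 3 annotated neighbours on each side, the 5 genes most like each by mean Pearson r (over 17 small RNA libraries, without generation 50), the genes with the largest opposite changes and up to 3 called genes per list and direction, with the mutated genes. The members and lists were chosen with earlier results of these data known. No genome or sequence table was at hand, so no sequence or coordinate is given.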

Additional observations from a re-analysis of the deposited data

How the results depend on the processing

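Of 691 alternatives on 44 values of the 3 genes, 396 that keep every library and 250 that leave 1 out gave the same outcome. For tested values this means the same direction and call. For values given without a test it means the same direction, moved by less than the combined SD of both groups. With library totals in place of the deposited scaling, the generation 1 small RNA difference of prg-1(n4357) from the wild type was 5.85 for F36F12.8, 8.49 for C04F12.5 and 4.70 for C27C7.1. That of mut-14 smut-1 from the wild type was 1.12 (adjusted p = 0.00179, limma), 0.57 and 0.29, all reversed, and with TMM it was 0.19 for F36F12.8. For prg-1(tm872) library totals gave 5.24 for F36F12.8 and 1.24 for C27C7.1, and F36F12.8 was 5.47 with median-ratio scaling, 5.47 with TMM and 5.45 with a pseudocount of 5. In mRNA, library totals gave 0.33 for C04F12.5 in mut-14 smut-1 at generation 1 (adjusted p = 0.0281, limma), now called, and -0.058 for its generation 50 triple mutant minus mut-14 smut-1. The rise of C27C7.1 in mut-14 smut-1 at generation 50 was called with library totals (1.10), with a pseudocount of 5 (1.02) and with only the 2 groups in the fit (1.03). A pseudocount of 5 gave -2.91 for C04F12.5 mRNA and 8.23 for its small RNA in prg-1(n4357). The cause was not tested. Library totals also moved the share of higher among called features from 42.12% to 14.68% in generation 1 small RNA of prg-1(n4357), from 31.8% to 60.37% in mut-14 smut-1 and from 30.5% to 80.89% in the triple mutant against prg-1(n4357).

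Leaving out each library in turn gave 0.29 to 0.48 for C04F12.5 polyA-selected minus total RNA. In mRNA of the triple mutant minus mut-14 smut-1 it gave -0.52 to -0.36 for F36F12.8 at generation 1, -0.0164 to 0.19 for C04F12.5 at generation 50, and 0.80 to 1.70 for the change of F36F12.8 between generations. At generation 50 the triple mutant minus prg-1(n4357) ran from 2.35 to 3.10 for F36F12.8 and from 1.56 to 3.22 for C04F12.5, and mut-14 smut-1 minus wild type from 0.87 to 1.24 for C27C7.1, called without mut-14 smut-1 line 2. In generation 1 small RNA mut-14 smut-1 minus wild type ran from -0.47 to 0.45 for F36F12.8 and from -1.29 to 0.79 for C04F12.5, and the triple mutant minus mut-14 smut-1 from -0.84 to 0.081 for F36F12.8, -2.68 to -0.61 for C04F12.5 and -0.54 to 0.0515 for C27C7.1. These last values rest on 1 mut-14 smut-1 library left in the fit, assumed to vary like the other groups, and for C04F12.5 that library held 3 reads or 1.

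Same-numbered libraries did not pair in generation 50 mRNA (r from -0.267 to 0.328), and pairing for polyA selection is unsettled. A replicate block changed no call of the 3 genes (F36F12.8 generation 1 triple mutant minus mut-14 smut-1: -0.46, limma, adjusted p = 0.0407) and moved the called features from 2368 to 4529 for polyA selection, from 319 to 146 for generation 50 triple mutant minus mut-14 smut-1 and from 451 to 298 for the same contrast in generation 1 small RNA. With every library kept those counts ran from 2144 to 4529, 13 to 545 and 43 to 490, and leaving out 1 library from 1539 to 2288, 29 to 1750 and 171 to 681. Those of generation 50 mut-14 smut-1 minus wild type ran from 1800 to 4678 (4538 as reported; 2432 to 5407 without 1 library), and those of generation 50 triple mutant minus prg-1(n4357) from 71 to 124 (116 as reported; 44 to 80 without 1 library). The change of triple mutant minus mut-14 smut-1 between generations was called at 37 to 802 genes (576 as reported; 101 to 2222 without 1 library). Count tests of mRNA, whose values were not whole reads, and scaling to miRNAs, for want of generation 50 small RNA rows, were not run.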

Other observations

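Histone genes were among those with the largest opposite changes in prg-1(n4357) in both generations. In generation 1 his-16 gained 6.97 in small RNA and differed by -2.33 in mRNA, and at generation 50 by 6.60 and -2.84 (log2 of value + 1, a description over 3 libraries a group). The small RNA differences of his-12 were the same as those of his-16 (6.97 and 6.60), so the gain cannot be assigned to 1 of them. For his-12 the mRNA differed by -2.81 and -1.14. The values of his-10, his-14 and his-26 in generation 1 were identical, so these copies cannot be told apart and are uncertain one by one. Outside the histones F33H2.3 gained 6.41 and 7.23 in small RNA, and its mRNA differed by -2.29 and -1.91.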
